A study of Homo sapiens with 4 samples.

Results

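Nuclear copies of mitochondrial genes were taken as all called intervals whose nearest gene name was 1 of 10 names: the pseudogenes MTND2P28, MTND2P18, MTND3P19, MTND4LP30, MTND5P11, MTCO1P21 and MTCO3P12, and the genes MTRNR2L1, MTRNR2L8 and MTRNR2L12. These names found 35 of the 391 intervals in 4 lists, and joining intervals that overlap by at least 1 bp made them 11 of 205 regions. The lists come from chromatin immunoprecipitation with sequencing (ChIP-seq) of c-MYC in UACC-812, an established breast cancer cell line. One derived line overexpresses C-MYC, the other is called a flag line in the labels, and both have 1 ChIP and 1 input library. The labels give a CMYC antibody for the ChIP libraries and RNA-pol-II for the libraries titled input, and the titles were followed. The sources used here do not say whether either line is a single clone or how the transgene is driven. Each group is 1 library, so there is no replicate spread and no test, and every value compares libraries, not conditions. The names were chosen by the nearest gene of intervals that the caller had listed, and so selected on its pileup and q, and the presence of these copies in the lists is a description.

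Copies of mitochondrial DNA have been inserted into the nuclear chromosomes throughout evolution, often as stretches that carry several mitochondrial genes side by side. Such a stretch can be nearly identical to the mitochondrial genome, which is present in many copies per cell, so a short read from one can be placed on the other. The genes of origin here encode subunits of respiratory complex I (ND genes), subunits of cytochrome c oxidase or complex IV (CO genes), and the 16S ribosomal RNA (RNR2), which also contains the reading frame of the peptide humanin. MTRNR2L genes are nuclear relatives of RNR2. No list held an interval on the mitochondrial chromosome (0 of 391).

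A microRNA gene lies inside a pair of these nuclear stretches, and their mature sequences are shown because each is a short piece of nuclear sequence next to or under the intervals described here. Sequences are from RefSeq on GRCh38.p14, 5′ to 3′, with the seed, bases 2 to 8, in capitals.
hsa-miR-4485-3p: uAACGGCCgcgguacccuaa
hsa-miR-12136: gAAAAAGUcauggaggcc
The miR-4485-3p sequence lies on the minus strand of chromosome 11 from 10508277 to 10508296, inside MTRNR2L8. The flag input interval there covered all 20 of its bases and the overexpressing line input interval 11, while the intervals of the ChIP libraries ended 55 and 76 bp short of it in the overexpressing line and the flag line. The miR-12136 sequence lies on the minus strand of chromosome 1 from 632668 to 632685, between the copies MTCO1P12 and MTCO2P12. It was in no interval, and the nearest one began 31 bp away in the overexpressing line input and flag ChIP lists and 29 bp away in the flag input. The 2 seeds differ.

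The copies made up 7 of 25 intervals in the overexpressing line ChIP list (28%, exact Clopper-Pearson 95% interval 12.1 to 49.4%), 8 of 86 in its input (9.30%, 4.10 to 17.5%), 9 of 161 in the flag ChIP list (5.59%, 2.59 to 10.3%) and 11 of 119 in its input (9.24%, 4.71 to 15.9%). Such intervals cover counting error only. Of the 11 regions, 7 were in all 4 lists, as were 24 of all 205 regions and 16 of the 184 outside the mitochondrial copies. MTCO1P21 and MTND2P18 were in both flag line lists alone, MTRNR2L12 in both inputs alone and MTRNR2L8 in the flag input alone. The 7 regions in all lists had flag input pileups of 97 to 431, and the other 4 had pileups of 17 to 36. Pileup is the deposited whole number of fragments stacked at the summit, with no stated scaling. The lowest pileup at which anything was listed was 10 in the overexpressing line ChIP library, 13 in its input, 8 in the flag ChIP library and 11 in its input.

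The name of the nearest gene did not always say where an interval lay. All 10 names were found in the RefSeq table of GRCh38.p14, which classes each as a pseudogene, whereas the files class the MTRNR2L genes as protein coding. Of the 35 intervals, 25 overlapped the RefSeq copy of that name, 6 overlapped only another copy and 4 overlapped none. The 6 were the intervals of one of the MTND5P11 regions, which lay on MTND4P12, and those named MTND2P18, which lay on MTND1P26. The 4 were those named MTRNR2L1, which lay between MTCYBP13 and MTRNR2L1. By position, 56 intervals in 18 regions overlapped any of the 487 nuclear copies in RefSeq, and 13 of these carried a nearest gene name that is not a mitochondrial one. They were named MIR4485 (on MTRNR2L8), AL669831.3 (on MTCO2P12), AC132825.6 (on MTND6P34) and MLPH (on MTND5P46). These 4 regions, and 6 more that were nearest another mitochondrial gene copy by name, are called other copies below, and the remaining 184 regions are called outside the copies.

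Complex I copies gave 5 of the 10 names and 22 of the 35 intervals. The MTND2P28 region (chromosome 1, 629034 to 630868 over all lists) covered all of the ND2 copy in each library and 80.5 to 100% of the neighbouring ND1 copy MTND1P23. Its pileup was 108 in the overexpressing line ChIP library, 429 in the overexpressing line input, 196 in the flag ChIP library and 389 in the flag input. Both ChIP values were below both inputs. It was also the widest region of the set, at 1599, 1830, 1689 and 1821 bp in the same order of libraries.

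On chromosome 5, 3 regions stood side by side. The region inside MTND5P11 (134925181 to 134926117) had pileups of 61 and 223 in the overexpressing line ChIP and input libraries and 107 and 220 in the matching flag libraries. The region also named MTND5P11 but lying on the ND4 copy MTND4P12 (134926587 to 134927670) had 79 and 291 in the overexpressing line and 140 and 271 in the flag line. At MTND4LP30 (134927976 to 134928581), an ND4L copy whose region also took in the ND3 copy MTND3P25, the pileup was 74 and 312 in the overexpressing line and 137 and 290 in the flag line. In each of these regions the overexpressing line ChIP library was lowest, the flag ChIP library next, and the inputs highest and close to each other.

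MTND3P19 (chromosome 5, 100050696 to 100051597) is an ND3 copy in another stretch, and its region ran into the CO3 copy MTCO3P22. The pileup was 32 in the overexpressing line ChIP library, 109 in the overexpressing line input, 58 in the flag ChIP library and 114 in the flag input. Of the 7 regions of the set in all 4 lists, this was the only one in which the overexpressing line input did not exceed the flag input. The region named MTND2P18 (chromosome 2, 131385522 to 131386036) was listed with 12 in the flag ChIP library and 29 in the flag input.

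Complex IV copies gave 2 names and 6 intervals. MTCO3P12 (chromosome 1, 633924 to 634892), a CO3 copy whose region also covered 53.3 to 66.5% of the ATP6 copy MTATP6P1, had pileups of 110 and 447 in the overexpressing line ChIP and input libraries and 216 and 431 in the matching flag libraries. The 447 was the highest pileup of all 86 intervals in the overexpressing line input. MTCO1P21 (chromosome 1, 93927985 to 93928499), a CO1 copy, had 17 in the flag ChIP library and 36 in the flag input.

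The 16S ribosomal RNA relatives gave 3 names and 7 intervals. The region named MTRNR2L1 (chromosome 17, 22521166 to 22521717), 1588 to 1670 bp upstream of the deposited start site, had pileups of 23 and 109 in the overexpressing line ChIP and input libraries and 64 and 97 in the matching flag libraries. MTRNR2L12 (chromosome 3, 96617582 to 96618099), with its interval inside the gene, had 20 in the overexpressing line input and 17 in the flag input. The MTRNR2L8 interval (chromosome 11, 10508999 to 10509281) lay across the deposited start site of the gene, with a pileup of 33 in the flag input. Another part of MTRNR2L8 lay under intervals named MIR4485 (10507704 to 10508394), with pileups of 22 and 71 in the overexpressing line and 30 and 61 in the flag line. The region overlapping the end of MTRNR2L1 itself was named MTND1P15 and was listed in 3 libraries, with 56 in the overexpressing line input, 29 in the flag ChIP library and 47 in the flag input. By position, 3 of the 13 MTRNR2L genes in RefSeq carried an interval.

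**Figure D1:**
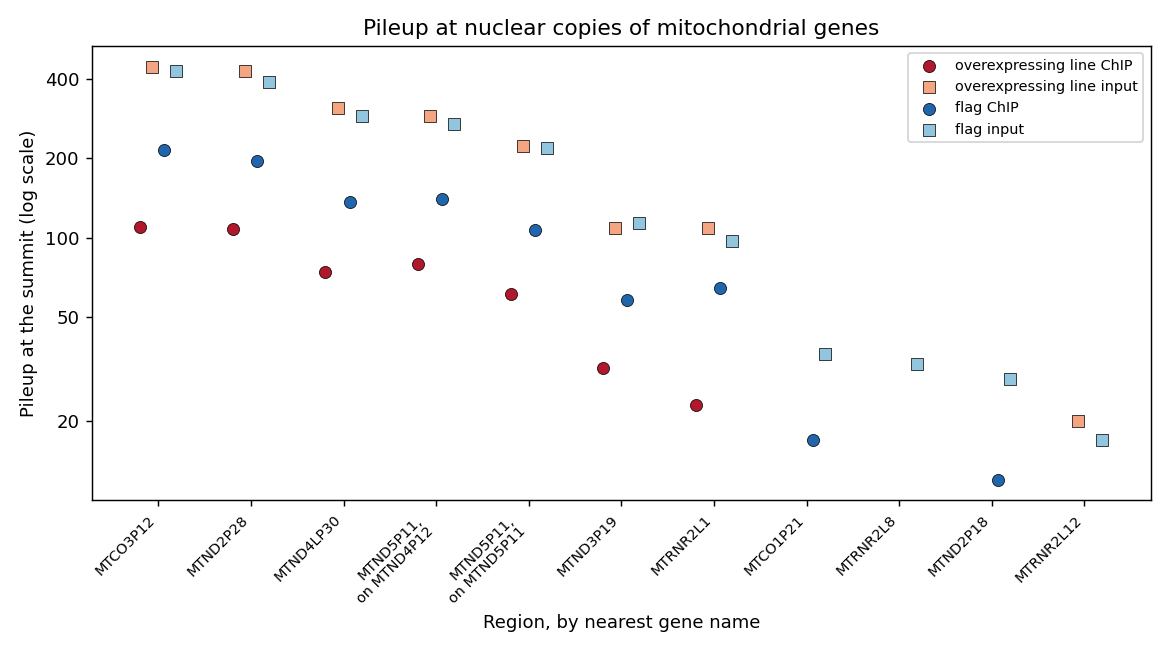
Pileup at the summit (log axis) of each of the 11 regions in each library where it was listed, 1 point per library, with regions ordered by the flag input. In the 7 regions listed in all 4 libraries the overexpressing line ChIP point is lowest, the flag ChIP point next and both inputs are above them.

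In all 7 regions of the set that were in all 4 lists, the pileup rose from the overexpressing line ChIP library to the flag ChIP library to the inputs. The same order held in 11 of the 16 regions outside the copies that were in all lists. Interval width followed it: the overexpressing line ChIP interval was the narrowest and the flag ChIP interval narrower than both inputs in 7 of 7. At MTND3P19 the widths were 325 and 776 bp in ChIP and input of the overexpressing line and 525 and 899 bp in the matching flag libraries. ChIP was narrower than input in both lines in 9 of the 16 regions outside the copies. Median width in the set was 387, 847, 525 and 598 bp in the overexpressing line ChIP, overexpressing line input, flag ChIP and flag input lists, against 529, 512, 440 and 496 bp outside the copies. The medians in the set are over 7, 8, 9 and 11 intervals, so they do not compare the same regions. With the MTRNR2L names left out they were 535, 936.5, 661 and 917.5 bp.

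Summits kept their place within 26 bp in some regions and moved further in others, while widths changed. The 4 summits of the MTRNR2L1 region lay within 4 bp, those of MTND3P19 within 9 bp, and those of MTND4LP30 and of the region inside MTND5P11 within 26 bp. They were spread over 100 bp in the MTND4P12 region and 107 bp at MTCO3P12. The widest region, MTND2P28, had the widest spread, 368 bp, with its summit 12 bp into the deposited gene in the overexpressing line ChIP library and 380 bp in the flag input.

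**Figure D2:**
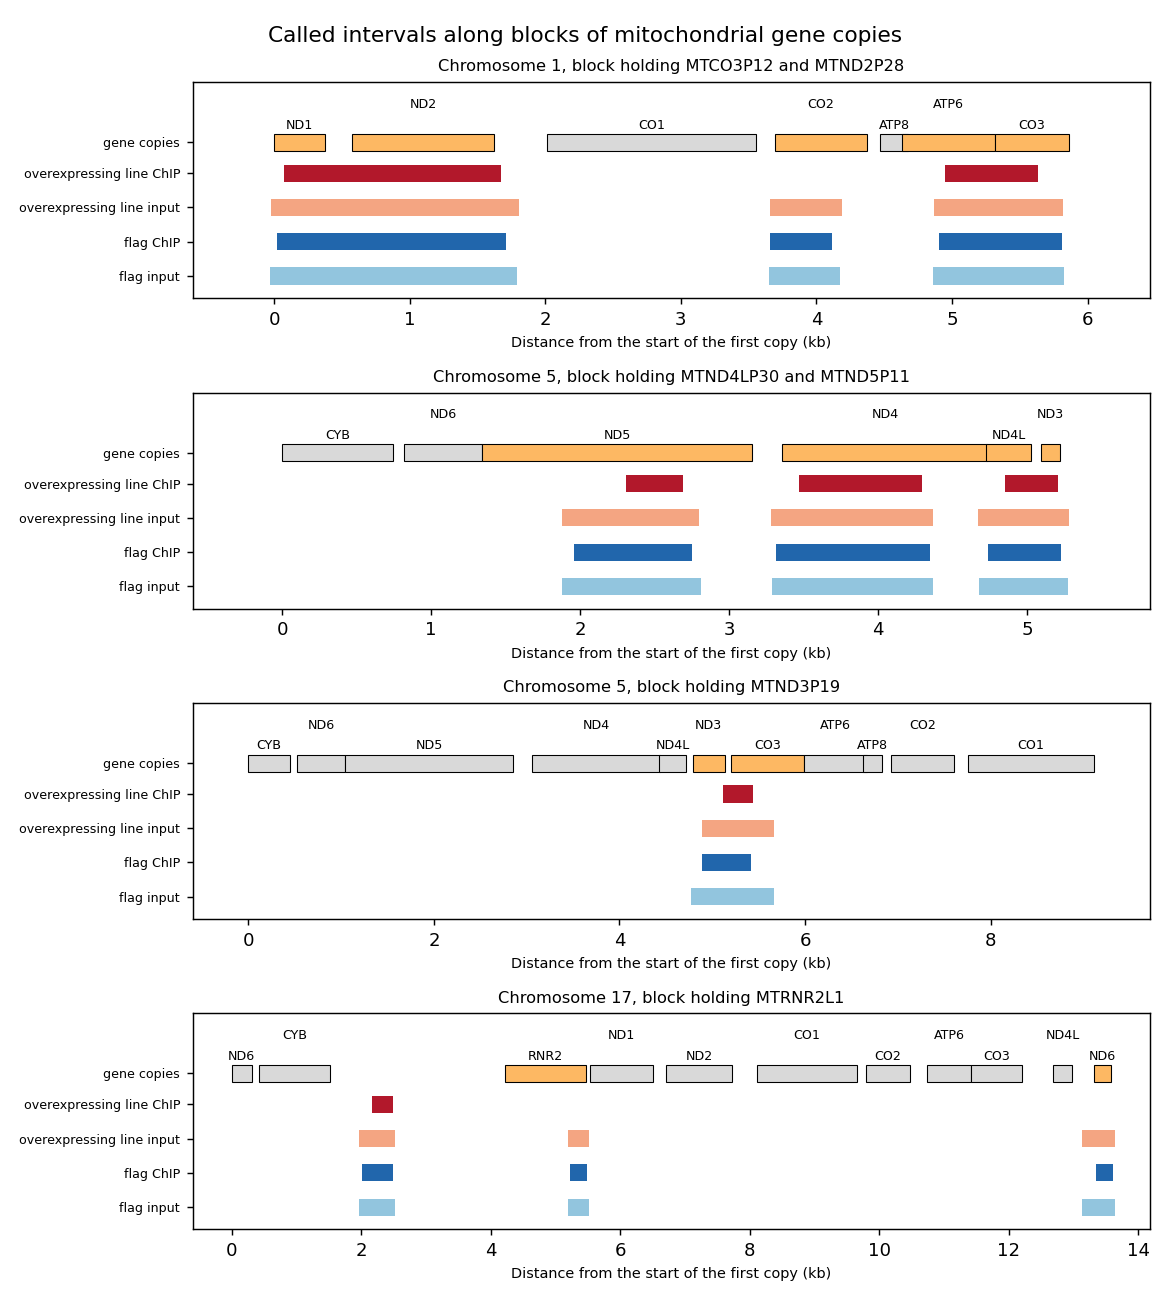
Called intervals (coloured bars, 1 row per library) along 4 stretches of neighbouring RefSeq copies (boxes, named by mitochondrial gene of origin and orange where an interval of any library overlaps them), by distance from the start of the first copy in kb. Where a region is listed in several libraries its intervals overlap and differ in width. The overexpressing line ChIP row has fewer intervals than the other rows in the MTND2P28 and MTRNR2L1 stretches, and intervals leave most copies of the lower 2 stretches without any.

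The regions fell into 8 stretches of RefSeq copies, joined where neighbours were at most 10 kb apart. In the chromosome 1 stretch of 5861 bp that holds MTND2P28 and MTCO3P12, 5 of 7 copies carried an interval in some list. Its CO1 copy, MTCO1P12, had none in any library, and the ATP8 copy, MTATP8P1, had none either. The CO2 copy, MTCO2P12, had one in every library but the overexpressing line ChIP, with pileups of 349, 161 and 323 in the overexpressing line input, flag ChIP and flag input. In the chromosome 5 stretch of 5225 bp that holds MTND5P11 and MTND4LP30, 4 of 6 copies carried intervals, and the ND6 and CYB copies beside MTND5P11 did not. The other stretches were covered more sparsely, with 2 of 11 copies around MTND3P19, 2 of 11 around MTRNR2L1, 1 of 6 around MTCO1P21 and 1 of 12 around MTND2P18. MTRNR2L8 and MTRNR2L12 stood alone.

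Over the genome, 22 of 487 RefSeq copies (4.52%) overlapped an interval in any list. They descended from 13 of the 15 mitochondrial protein and ribosomal RNA genes. None of the 4 ATP8 copies did, and RefSeq names no nuclear copy of RNR1 in the table used. CO1 had the most copies, 58, of which 1 carried an interval, MTCO1P21 (1.72%, 95% interval 0.0436 to 9.24%). CYB had 2 of 45, CO3 2 of 47 and ND5 2 of 45, and RNR2 had 3 of 13 (23.1%, 95% interval 5.04 to 53.8%). The interval for RNR2 overlaps those of the other genes with a copy listed. A single called interval can overlap several neighbouring copies, so copies are not independent and these 95% intervals are rough.

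ChIP pileup was then set against input pileup in each line. The names came from listed intervals, but other listed copies such as MTCYBP35 were not among them. They were chosen with earlier results of these data known, so the choice cannot be called independent of this ratio. Both pileups also had to be high enough to be listed. In the flag line, the 9 regions of the set listed in both libraries had a median ChIP over input ratio of 0.501, and it ran from 0.414 at MTND2P18 to 0.660 at MTRNR2L1. The 80 regions outside the copies listed in both had a median of 0.903 and quartiles of 0.798 and 1.01. All 9 regions of the set lay below the lower quartile of the outside regions, and 9 of the 80 outside regions lay below the highest region of the set. Ratios were 0.504 at MTND2P28 (95% counting interval 0.422 to 0.600), 0.501 at MTCO3P12 (0.424 to 0.591) and 0.472 at MTND4LP30 (0.383 to 0.581). The counting interval takes both pileups as counts of independent fragments, which PCR duplicates and any scaling would break.

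In the overexpressing line, the 7 regions of the set had a median ChIP over input ratio of 0.252, from 0.211 at MTRNR2L1 to 0.294 at MTND3P19. The 17 regions outside the copies had a median of 0.409 and quartiles of 0.375 and 0.697, with MYC itself at up to 3.98. All 7 lay below the lower quartile outside, and 4 of the 7 lay below the lowest outside region, at 0.259. The ratio was 0.252 at MTND2P28 (95% counting interval 0.202 to 0.312), 0.246 at MTCO3P12 (0.198 to 0.304) and 0.211 at MTRNR2L1 (0.128 to 0.333). All 17 outside regions had to be in the short overexpressing line ChIP list, which selects regions with high ChIP pileup. The lowest pileup in that list was 10, so outside regions with low inputs, such as RNA5-8SN5 (10 and 26), had little room for a lower ratio. The set had inputs of 109 to 447. Over the 9 outside regions with an input pileup of at least 50, the median was 0.375 and the lowest ratio again 0.259.

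**Figure D3:**
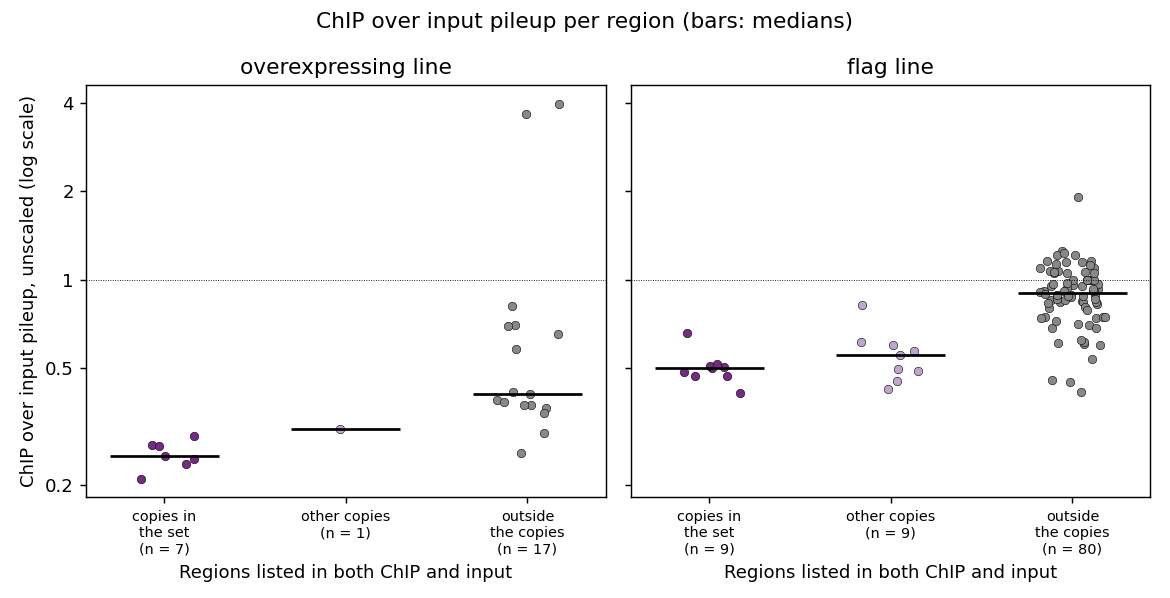
ChIP over input pileup as deposited (log axis) for each region listed in both libraries of a line, 1 point per region, bars at the medians. The copies in the set have medians of 0.252 in the overexpressing line and 0.501 in the flag line, below the medians of 0.409 and 0.903 outside the copies.

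Dividing each ratio by the median of the regions outside the copies gave a scaled ratio, in which 1 means the same ChIP over input as those regions. The set had a median scaled ratio of 0.555 in the flag line and 0.616 in the overexpressing line. In the flag line, 8 of the 9 regions were lower by more than 1.5-fold, where 20.4% of all shared regions, the copies included, were and 6.25% of those outside the copies. MTRNR2L1 was the exception, at 0.731 (95% counting interval 0.524 to 1.01). In the overexpressing line, 5 of 7 were lower by more than 1.5-fold, against 24.0% of all shared regions and 5.88% outside the copies. MTND3P19 and the region inside MTND5P11 were the other two, at 0.718 and 0.669. With outside regions of pileup at least 50 as the reference, the count in the overexpressing line fell to 3 of 7 and the median scaled ratio was 0.671. The share of all shared regions was not recounted for this reference, so that count has no background beside it. Past 2-fold there was 1 region of the set in the flag line, MTND2P18, and 0 in the overexpressing line. MTND2P18 was at 0.458 (95% counting interval 0.213 to 0.926), from pileups of 12 and 29. Also past 2-fold in the flag line were the other copy at MLPH (0.471) and the outside regions AL512658.1 (0.461) and CDY3P (0.496). With no replicates, these counts describe the libraries. Reads from mitochondrial DNA and from the nuclear copies cannot be told apart in these lists.

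Counting error left room for a common ratio among the copies, which is not a test that they are equal. Counting intervals are wide where pileups are low, as at MTND2P18 in the flag line (0.192 to 0.836). In each line the 95% counting intervals of all regions of the set shared a common stretch, which ran from 0.209 to 0.304 in the overexpressing line and 0.474 to 0.581 in the flag line. By gene of origin, the median ratio in the flag line was 0.495 for the 6 complex I regions and 0.487 for the 2 complex IV regions. The region named MTRNR2L1, which overlapped no RefSeq copy, had 0.660, and the region named MTND1P15, which does overlap MTRNR2L1, had 0.617. In the overexpressing line it was 0.271 for 5 complex I regions, 0.246 at MTCO3P12 and 0.211 at the region named MTRNR2L1. The latter thus had the highest ratio of the set in the flag line and the lowest in the overexpressing line, with counting intervals that overlap those of the rest in both.

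The other copies, which the rule did not choose, had similar ratios. In the flag line 9 of them were in both lists, with a median of 0.556 and a range of 0.425 to 0.824. The region named MLPH, on MTND5P46, had pileups of 17 and 40 and a ratio of 0.425, and the region named AL669831.3, on MTCO2P12, had 0.498. AC132825.6, on MTND6P34, had 0.600, and MIR4485, on MTRNR2L8, had 0.492. The highest, 0.824, was the region named MTCO1P6 (chromosome 3, 89768539 to 89769020). It overlapped no RefSeq copy, and its deposited distances to the MTCO1P6 start site were -178571 and -178780 bp. In the overexpressing line only MIR4485 was in both lists, at 0.310.

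Between the lines, the ChIP pileups of the 7 shared regions were lower in the overexpressing line, with a median overexpressing line over flag line ratio of 0.551 (0.359 at MTRNR2L1 to 0.570 at the region inside MTND5P11). The 17 regions outside the copies had a median of 0.776. Relative to these, 2 of 7 were lower by more than 1.5-fold, MTCO3P12 and MTRNR2L1, against 12.0% of all shared regions and 5.88% outside the copies. This count rose to 7 of 7 when the reference was the 4 outside regions with a flag ChIP pileup of at least 50, a pair of which are at MYC. With that reference, at a median of 0.964, outside regions were past 1.5-fold too: RNA5-8SN5 (ratio 0.476) and the EMB regions (0.590 and 0.600). The count in the set fell to 1 of 7 when scaled by outside regions in all 4 lists, with a reciprocal overlap of 50% or with a 2-fold limit. Shares of all shared regions were not recounted for these alternatives.

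The inputs were nearly equal at the copies. The median overexpressing line over flag line ratio of the input pileups was 1.07 over 8 regions, from 0.956 at MTND3P19 to 1.18 at MTRNR2L12, and the 95% counting intervals of all 8 included 1. Outside the copies the median was 1.46 over 35 regions. Scaled by that median, 1 of the 8 was lower by more than 1.5-fold, MTND3P19, against 7.84% of all shared regions and 5.71% of those outside the copies. Over the 7 outside regions with a flag input pileup of at least 50, the median was 1.08. A pair of these are at MYC, with ratios of 0.288 and 0.258. With that reference the scaled median of the copies, 0.737, became 0.998.

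High pileup went with low deposited fold enrichment at the copies. The authors' fold is a ratio whose denominator the file headers leave unnamed, and it is used here only within a list. The 5 regions of the set in the chromosome 1 stretch with MTND2P28 and MTCO3P12 and the chromosome 5 stretch with MTND5P11 and MTND4LP30 had folds of 2.76 to 3.94 over the 4 lists. The neighbouring region on MTCO2P12, outside the set, had 2.36, 2.53 and 2.36 in the overexpressing line input, flag ChIP and flag input, the lowest fold of each of these lists. In the overexpressing line ChIP list they held the 5 lowest folds, ranking 21 to 25 of 25. Outside the copies, a fold below 4 was given to 0 of 17, 3 of 70, 0 of 143 and 1 of 98 intervals in the overexpressing line ChIP, overexpressing line input, flag ChIP and flag input lists. MTCO3P12 ranked 1 of 86 by pileup and 81 of 86 by fold in the overexpressing line input.

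The other 6 regions of the set had folds of 6.28 to 16.5, spread from near the top of a list to its lower part. At MTND2P18 the flag input gave a fold of 16.5 at a pileup of 29, rank 5 of 119, and MTCO1P21 had 14.01 with a pileup of 36, rank 13. In the flag ChIP list the same regions had 9.10 and 9.51, ranks 91 and 75 of 161, near the median of 9.40 outside the copies. MTRNR2L12 and MTRNR2L8 had 7.82 and 6.28 in the flag input, ranks 94 and 106 of 119, below the outside median of 9.64. MTRNR2L1 had 8.01 and 11.4 in ChIP and input of the overexpressing line and 13.1 and 11.8 in the matching flag libraries. By fold, MTND3P19 ranked 13 of 25, 32 of 86, 111 of 161 and 78 of 119 in the overexpressing line ChIP, overexpressing line input, flag ChIP and flag input lists.

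Pileup divided by fold is called the quotient here. It is not a measured background, because how the fold was computed is not stated, and at low pileups it may depart from one. The quotient was nearly the same for neighbouring intervals of the set. The 3 chromosome 5 regions gave 20.04, 20.06 and 20.01 in the overexpressing line ChIP list (inside MTND5P11, on MTND4P12 and at MTND4LP30) and 80.9, 81.0 and 81.1 in the overexpressing line input. In the flag line they gave 36.1, 36.0 and 35.9 in ChIP and 73.9, 74.0 and 74.0 in the input. MTND2P28 and MTCO3P12 gave 34.0 and 32.5 in the overexpressing line ChIP list and 147 and 140 in its input. At MTND3P19 the quotient was 3.74 in the overexpressing line ChIP list and at MTRNR2L1 2.87, against a median of 2.17 outside the copies. Nearly equal quotients of neighbours were not particular to the copies. In the overexpressing line ChIP list the neighbouring MYC regions had pileups of 596 and 581 with folds of 7.68 and 7.50.

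**Figure D4:**
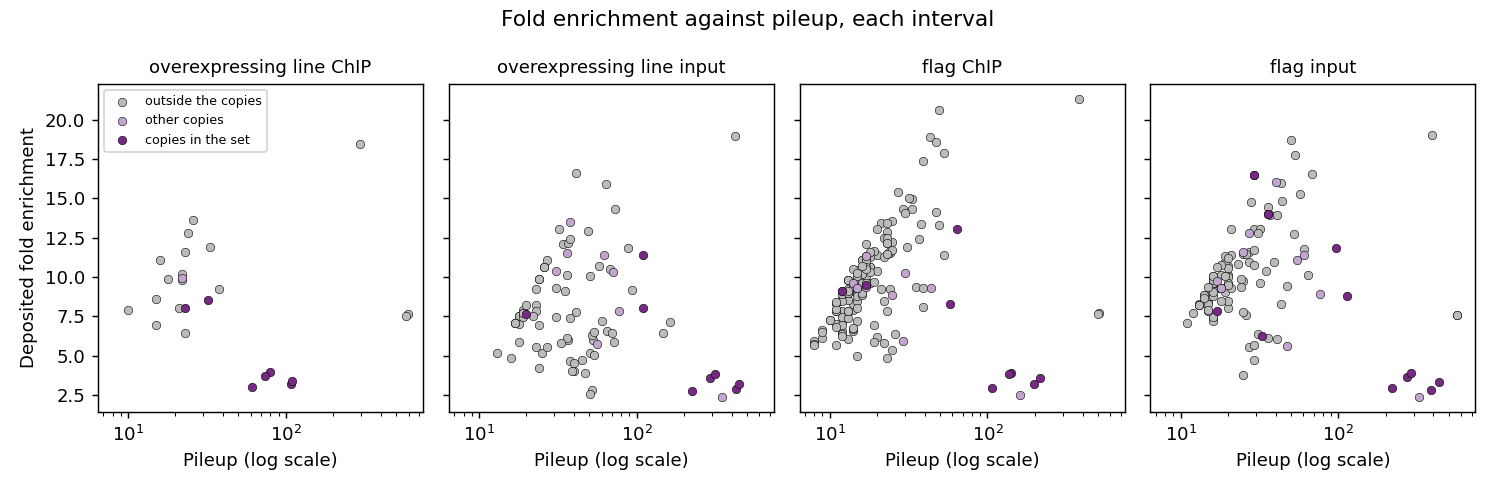
Deposited fold enrichment against pileup (log axis) for each interval, 1 panel per library. The copies in the set from the 2 densely covered stretches sit at the bottom right of each panel, with folds of 2.76 to 3.94, and so does the other copy on MTCO2P12 (2.36 to 2.53) in the 3 panels that hold it. The rest of the copies lie among the intervals outside the copies.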

How the data were processed

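Per the submitters' processing notes, CASAVA 1.4, cutadapt 1.19, Bowtie2 2.3.0 and MACS2 2.1.1 were used with GRCh38. Whether a control was used, at which threshold, and how reads with several matches were handled: not given in the sources used here. A deposited list belongs to 1 library. Per the file headers, the signal of an interval is its pileup. The authors' fold is a ratio over an undefined background, the deposited -log10 values are those of p and q, and the deposited score is the -log10 q times 10, rounded down (391 of 391 intervals). The depth is unknown, since no file or label gives total reads.

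Intervals overlapping by at least 1 bp were joined, and a region took its highest pileup in a list. RefSeq copies were matched by symbol and position on GRCh38.p14. Ratio intervals are exact binomial. Coordinates are 1-based as in the files. The ratio code was tested on simulated data, with Python 3.11.15 and scipy 1.17.1. The members, gene lists and rules were chosen with earlier results of these data known. All members are named, as are other copies and intervals within 20 kb of a member. An exact permutation of signs over 2 lines has 0.5 as its smallest p, so none was run. Alternatives were other scalings, a reciprocal overlap of 50%, the mean pileup, a -log10 q of at least 2, a fold of at least 3, a 2-fold limit and other memberships. The scaling by regions of pileup at least 50 and membership by RefSeq position were chosen after seeing the data.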

Additional observations from a re-analysis of the deposited data

How the results depend on the processing

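No paired analysis was possible because each group holds 1 library and the labels give no replicate numbers. Pileups carry no depth, so ratios between libraries rest on the reference regions. Without scaling, the median ratio of the copies was 0.252 for ChIP over input in the overexpressing line and 1.07 for overexpressing line over flag input. With outside regions of pileup at least 50 as reference, the latter was 0.998. The number of regions lower by more than 1.5-fold moved as follows. For ChIP over input in the overexpressing line it was 5, and 3 with the reference of pileup at least 50, 4 with regions in all 4 lists and 7 without scaling. In the flag line it was 8, and 9 without scaling. With a limit of 2-fold it was 0 in the overexpressing line and 1 in the flag line, against 8. For ChIP between the lines it was 2, and 7 without scaling, 7 with the reference of pileup at least 50, and 1 with regions in all 4 lists, with a reciprocal overlap of 50% or with a limit of 2-fold. For input between the lines it was 1, and 0 without scaling, with either other reference or with a limit of 2-fold. The shares of all shared regions were not recounted under these alternatives. The number of intervals of the set rose from 9 to 14 in the flag ChIP list and from 11 to 17 in the flag input when every copy by name was counted. By RefSeq position it was 15, 16 and 18 in the overexpressing line input, flag ChIP and flag input lists. Under another scaling or overlap, 55 of 62 single-region values stayed within their counting interval and 7, all without scaling in the overexpressing line, did not. Each such setting multiplies all regions of a line by a shared factor, so the values form 8 blocks and are not 62 separate checks. With reciprocal overlap the values in the overexpressing line did not change at all. The other 44 single-region values, with limits on q or fold or with mean pileup, equalled the reported values exactly, and show nothing of their stability. The cause of these changes was not tested.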

Other observations

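MTCO1P21 and MTND2P18 had pileups of 36 and 29 in the flag input list and were not in the overexpressing line input list. Taller flag input intervals outside the copies were missing from it too, among them AC004160.2 (57), CDH11 (53) and RAP2C (50). The inputs shared 51 regions. The overexpressing line input list held MTRNR2L12 with a pileup of 20, and its pileups at the shared copies were a median of 1.07 times those of the flag input.

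Outside the copies, 3 regions had a flag line ChIP over input ratio below the median of the copies, and they were picked out after their values were seen. They were nearest AL512658.1 (chromosome 6, 156547658 to 156548180, pileups 15 and 36, ratio 0.417, 95% counting interval 0.212 to 0.780), CDY3P (chromosome Y, 9141678 to 9142192, 13 and 29, ratio 0.448, 0.214 to 0.890) and AC090531.1 (chromosome 12, 41363417 to 41363952, 31 and 68, ratio 0.456, 0.288 to 0.707). None overlapped a copy named in RefSeq.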
